A study of Mus musculus with 24 samples.

Results

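GRIP1 knockout macrophages at rest were compared with wild-type macrophages at rest by ATAC-seq, a method that reads accessible chromatin from the places where the Tn5 transposase inserts. All cells were grown for 5 days from bone marrow of male C57BL/6 mice aged 8 to 10 weeks. The 4 knockout (KO) libraries carried LysM-Cre+/+; GRIP1fl/fl and the 4 wild-type (WT) libraries LysM-Cre+/+; GRIP1wt/wt, so both genotypes carried the recombinase in a homozygous state. Each received vehicle, for 24 hours by the titles and 25 hours by the treatment label. These 8 libraries were chosen by genotype and treatment from the 24 of the series, whose other 16 received 100 nM dexamethasone (Dex) or 10 ng/ml interleukin 4 (IL4). No label ties a library to a mouse or culture, so p-values measure only the spread between these libraries, which may be technical. In bulk material, fewer cells with an open site and less signal per cell cannot be told apart.

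GRIP1, encoded by Ncoa2, is a p160 coactivator: it is recruited by nuclear receptors such as the glucocorticoid receptor and brings histone-modifying enzymes to their target sites. In macrophages it is known both for supporting gene activation and for taking part in glucocorticoid repression of inflammatory genes. LysM-Cre is made from the lysozyme locus in myeloid cells, so deletion of a floxed allele occurs as these cells mature. Floxed alleles are often made in stem cells of another mouse strain, and DNA of that strain can stay beside the allele after crossing. Peaks were therefore described separately inside and outside chromosome segments dense in genotype differences.

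Counts in peaks ran from 7552327 to 14089351 per library, and the median tested peak held 36 counts. Of 141485 autosomal peaks, 106794 passed the filter on low counts. On the first principal component (22.4% of variance) the KO libraries lay between 4.86 and 68.2, the WT libraries between -58.8 and -22.8. Promoter peaks of all 11 macrophage markers were present, at 4.22 to 76.9 CPM (counts scaled to library size) per kb in WT, and none was called between genotypes. None of 6 T and NK cell markers had a promoter peak, while 3 of 7 neutrophil and 3 of 6 dendritic cell markers had one.

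Printed first are 5 promoters from a search of 23 of the 30 promoter peaks called outside the dense segments. They met both of these conditions: their peak was called between genotypes under every alternative run, and the peak covered the bases upstream of the start. Of the 23 called promoter peaks searched, 14 met the second condition. The rest of the 30 were not searched, so the 5 need not be all that qualify. The sequences are the 250 bases before the transcription start site, 5′ to 3′ on the strand of the gene, from the RefSeq promoter table on GRCm38.p6. They lie at chr7:97788291-97788540 (Pak1, plus strand), chr7:19075950-19076199 (Dmwd, plus strand), chr9:114844153-114844402 (Cmtm8, minus strand), chr9:119088262-119088511 (Plcd1, minus strand) and chr9:66795424-66795673 (Aph1b, minus strand). They are reference sequence and do not show which alleles the libraries carried. Capitals mark matches on either strand to any of 8 short motifs.
Pak1: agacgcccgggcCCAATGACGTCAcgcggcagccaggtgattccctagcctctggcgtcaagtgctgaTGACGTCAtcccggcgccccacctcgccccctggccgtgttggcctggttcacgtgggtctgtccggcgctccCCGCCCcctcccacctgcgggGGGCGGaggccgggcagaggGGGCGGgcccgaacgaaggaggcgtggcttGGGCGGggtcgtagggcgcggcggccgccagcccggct
Dmwd: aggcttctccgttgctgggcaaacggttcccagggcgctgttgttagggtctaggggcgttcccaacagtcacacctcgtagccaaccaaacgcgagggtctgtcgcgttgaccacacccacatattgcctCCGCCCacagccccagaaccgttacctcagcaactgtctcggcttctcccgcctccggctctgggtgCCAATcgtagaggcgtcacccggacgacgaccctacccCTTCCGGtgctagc
Cmtm8: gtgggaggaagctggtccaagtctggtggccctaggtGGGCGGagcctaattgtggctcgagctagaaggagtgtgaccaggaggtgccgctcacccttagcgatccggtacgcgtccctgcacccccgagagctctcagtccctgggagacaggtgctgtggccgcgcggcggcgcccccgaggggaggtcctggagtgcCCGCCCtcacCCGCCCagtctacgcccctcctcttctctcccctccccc
Plcd1: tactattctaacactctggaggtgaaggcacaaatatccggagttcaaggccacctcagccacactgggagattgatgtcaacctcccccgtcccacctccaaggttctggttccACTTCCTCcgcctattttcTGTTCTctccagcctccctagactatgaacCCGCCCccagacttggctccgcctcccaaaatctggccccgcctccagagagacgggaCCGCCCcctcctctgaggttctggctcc
Aph1b: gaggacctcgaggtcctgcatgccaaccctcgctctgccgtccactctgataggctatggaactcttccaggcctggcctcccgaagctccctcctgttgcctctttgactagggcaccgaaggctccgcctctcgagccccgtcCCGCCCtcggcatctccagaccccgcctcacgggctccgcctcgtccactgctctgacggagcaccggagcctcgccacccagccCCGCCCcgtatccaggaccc

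The search covered 8 motifs on both strands. Of the general promoter elements, the GC box was spelled GGGCGG. The CCAAT box and the TATA box, which is spelled TATAAA here, were also searched. The cyclic AMP response element, bound by CREB, was TGACGTCA. The site of AP-1, a dimer of Fos and Jun proteins, was TGANTCA. The ETS family site was read as CCGGAAG. PU.1, the ETS factor of the macrophage lineage, was given its own site GAGGAAGT. A half-site of the glucocorticoid receptor was taken as AGAACA. The ETS and PU.1 motifs share the letters GGAAG. The promoter of Pak1, a kinase that acts on the cytoskeleton, held 4 GC boxes, 1 CCAAT and 2 cyclic AMP response elements, of which the first overlaps the CCAAT. Cmtm8 held 3 GC boxes, Plcd1 2, Aph1b 2 and Dmwd 1. Plcd1 also held 1 PU.1 site and 1 receptor half-site, and Dmwd 1 CCAAT and 1 ETS site. Among all 32851 promoter windows of this length in the table, 32.7% hold the GC box, 33.8% CCAAT, 1.55% the cyclic AMP response element, 6.91% the ETS site, 2.44% the PU.1 site and 16.1% the half-site. The AP-1 motif (6.75% of windows) and the TATA box (12.4%) were found in none of these promoters. A match of letters describes the window and shows no binding.

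Ncoa2, the targeted gene (chr1:13139105-13374227, mm10), was looked at first. Its promoter peak (chr1:13372246-13374626) held 89.6, 88.4, 90.7 and 86.6 CPM in WT libraries 1 to 4 and 85.2, 91.7, 95.6 and 90.7 in KO. The genotypes overlapped, with a log2 fold change of 0.03 ± 0.06 (SE; edgeR adjusted p = 0.921). Of 34 tested peaks in or nearest to the gene, 30 lay inside it and 3 were called at an adjusted p below 0.05. Over all tested peaks 0.631% were called. Ncoa2 lies in a segment dense in genotype differences, from 12 to 16 Mb of chromosome 1. In that segment 19 of 113 tested peaks (16.8%) were called, so calls at Ncoa2 were not more frequent than around it.

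The 2 called peaks inside Ncoa2 fell. At chr1:13153076-13153733 the WT libraries held 5.54, 5.77, 6.71 and 6.28 CPM and the KO libraries 2.71, 2.2, 1.5 and 2.47, a log2 fold change of -1.43 ± 0.19 (adjusted p = 1.08e-07). At chr1:13256160-13256636 the WT libraries held 6.49, 7.73, 7.58 and 6.6 CPM and the KO libraries 3.75, 3.15, 2.99 and 2.94, a change of -1.14 ± 0.16 (adjusted p = 1.58e-06). At both, every KO library lay below every WT library. The third called peak, 49.7 kb upstream of the start (chr1:13423543-13423943), rose from 0.633, 1.38, 1.1 and 1.17 CPM to 6.85, 9.02, 9.39 and 7.21, a change of 2.96 ± 0.21 (adjusted p = 1.63e-17). The other 31 peaks had log2 fold changes of -0.66 to 0.89. The labels do not give the position of the floxed exon, so these peaks do not measure how much of the gene was deleted.

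**Figure D1:**
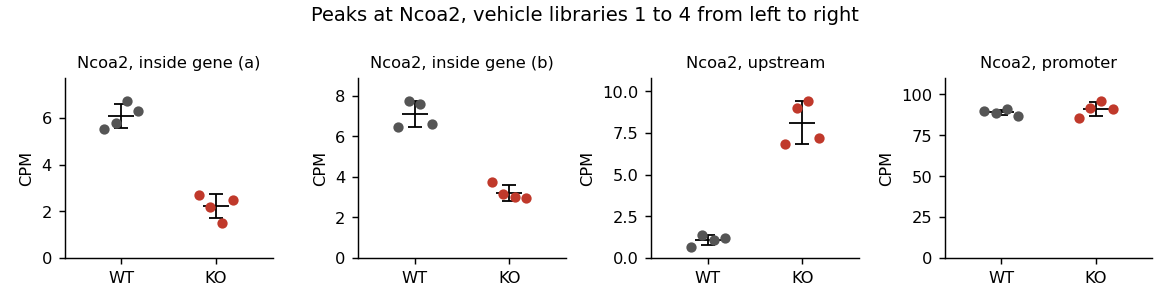
Level of 4 peaks at Ncoa2 in CPM (y axis) in the WT and KO vehicle libraries; points are libraries 1 to 4 from left to right, the bar is the mean and the whiskers the SD (n = 4). The inside peak a averaged 6.07 CPM in WT and 2.22 in KO, the upstream peak 1.07 and 8.12, and the promoter peak 88.8 and 90.8.

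Across the autosomes, 674 peaks (0.631%) were called: 291 rose (0.272%) and 383 fell (0.359%) in KO. At least 2-fold changes made up 163 of the rises and 161 of the falls, and the median size of a called change was 0.95 on the log2 scale. The levels of all 4 KO libraries lay above or below all 4 WT libraries at 5419 tested peaks (5.07%), 635 of them called. The median log2 fold change over all tested peaks was 0. The number of rises depended on KO replicate 2: without it, 487 peaks rose and 376 fell.

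The calls were gathered on few chromosomes. Chromosome 9 held 224, or 3.8% of its 5897 tested peaks, and chromosome 1 held 81. Chromosome 5 followed with 66, of which 63 fell, and chromosome 15 with 57, of which 38 rose. On chromosome 3, by contrast, 6 of 5511 peaks (0.109%) were called.

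**Figure D2:**
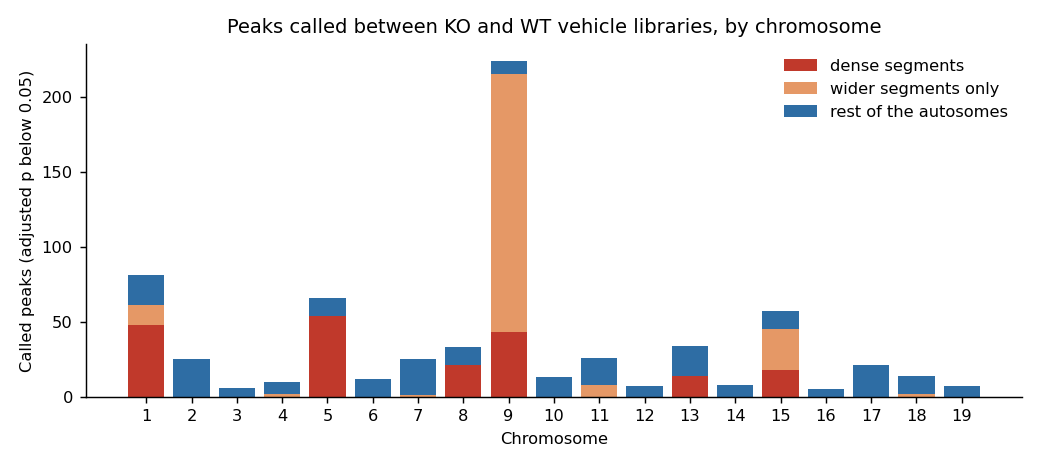
Called peaks (y axis) on each autosome (x axis), stacked by whether they lay in dense segments, in wider segments only, or in the rest of the autosomes. Chromosome 9 carries 224 calls, 43 in dense segments and 172 in wider segments only.

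Dense segments were set from the 16 treated libraries alone. They are made of 2 Mb bins with at least 20 tested peaks, of which at least 10%, and at least 5, differed between genotypes. A peak differed when its mean change over Dex and IL4 had an edgeR adjusted p below 0.05 and was at least 2-fold. Over the autosomes 0.461% of peaks did so. Such bins were joined when at most 1 bin lay between them, and that bin was included. There were 10 such segments of 30 Mb in all on 6 chromosomes. A wider set, made on the adjusted p without the 2-fold condition (2.22% of peaks passed), held 20 segments of 90 Mb on 12 chromosomes. At rest, 198 of 980 peaks in dense segments were called (20.2%), 225 of 3543 in the wider set only (6.35%), and 251 of 102271 elsewhere (0.245%). Outside the dense segments as a whole, 476 of 105814 peaks were called (0.45%). The median size of a called change was 1.47 in dense segments, 0.96 in the wider set only and 0.64 elsewhere. Whether a difference in a segment came from the loss of GRIP1 or from other DNA that differs between the genotypes cannot be told apart in this design. Only the dense segment from 12 to 16 Mb of chromosome 1 holds Ncoa2, and segments on other chromosomes are not linked to the allele. The same limit holds for peaks elsewhere, some of which lie in bins beside a segment.

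Within dense segments 83 peaks rose and 115 fell. The most uniform was on chromosome 5 from 14 to 16 Mb, where 54 of 75 tested peaks were called and all 54 fell, with a median log2 fold change of -1.44 over the 75. Of these calls, 18 lay nearest to a gene of the Speer family, a cluster of near-identical copies, so reads could be split between copies and the counts are uncertain. On chromosome 1, 19 of 113 peaks between 12 and 16 Mb, the segment around Ncoa2, were called and 18 of them fell. From 50 to 52 Mb of chromosome 9, 31 of 129 were called, 20 upward. The segment at 120 to 128 Mb of chromosome 1 held 24 calls, and that at 54 to 58 Mb of chromosome 8 held 21. The remaining segments held 5 to 14 calls each.

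The peaks described next are those with the largest changes among calls whose genotypes did not overlap and whose higher mean was at least 2 CPM, with 1 peak per gene. Larger fitted changes, up to 4.96 and down to -4.45 in dense segments, were seen at peaks that did not meet this rule. The first rise in a dense segment was 167 kb from Tmem74 (chr15:43703193-43703715). WT libraries held 0.554, 1.04, 0.66 and 0.639 CPM and KO libraries 13.1, 15.8, 13.7 and 15.2, a log2 fold change of 4.35 ± 0.2 (adjusted p = 2.49e-27). Every KO library held over 13 CPM, and no WT library more than 1.04. Inside Alg9, a mannosyltransferase gene, a peak rose by 3.76 ± 0.26 and another, nearest to Ppp2r1b, by 2.87 ± 0.31. A peak near Spcs3, a signal peptidase subunit, rose by 3.12 ± 0.21.

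Among falls, the first were in Tpmt, a thiopurine methyltransferase gene, and in Plet1, nearest to the start of Plet1os. The Tpmt peak went from 2.96 ± 0.66 to 0.249 ± 0.3 CPM (SD, n = 4; log2 fold change -3.61 ± 0.39) and the Plet1os peak from 2.06 ± 0.32 to 0.296 ± 0.23 (-2.93 ± 0.42). A peak in Hpgd, the prostaglandin-degrading dehydrogenase, went from 3.74 ± 0.42 to 0.63 ± 0.16 CPM (-2.57 ± 0.28). Gm21190 (-2.69 ± 0.31) and 3110009E18Rik (-2.38 ± 0.21) completed the set. These 9 changes and the rise upstream of Ncoa2 were each called under Dex and under IL4 too, the libraries from which the segments had been set.

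Outside the dense segments, the 10 largest falls by the same rule all lay in the wider set, 9 of them on chromosome 9. The peak near 4930509E16Rik (chr9:72526095-72526452) held 10.2, 8.08, 9.34 and 7.56 CPM in WT and 0.646, 0.0733, 0.272 and 0.379 in KO, a log2 fold change of -4.8 ± 0.27 (adjusted p = 3.2e-22). Near Scn10a, a sodium channel gene (chr9:119736924-119737536), WT libraries held 26.7, 30.6, 35.6 and 29.2 CPM and KO libraries 1.42, 0.806, 1.5 and 1.99 (-4.45 ± 0.16). At both peaks every KO library lay far below every WT library. Inside Pstpip1, an adaptor that binds the cytoskeleton and pyrin, a peak fell by 3.2 ± 0.18 on the log2 scale.
The remaining falls ranged from -4.31 to -2.43. They lay in or near 4930563M21Rik, 1700017B05Rik, Mns1, Ext1, Mir467h, 4930550C14Rik and Anp32a. Ext1 builds heparan sulfate chains.

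Of the 10 largest rises by the rule outside the dense segments, 5 lay in the wider set. The peak 30.7 kb from Myrip (chr9:120272938-120273855), which encodes a linker of Rab27 to myosin, held 1.42, 1.04, 1.21 and 1.6 CPM in WT and 21.1, 22.9, 19.9 and 21.1 in KO (3.99 ± 0.16, adjusted p = 2.02e-30). Inside Tbc1d22a, a peak held 0.641 ± 0.4 CPM in WT and 7.26 ± 0.38 in KO (3.46 ± 0.24). The peaks near Tle3 (3.07 ± 0.33), 1700041C23Rik (2.93 ± 0.38) and Trmu (2.82 ± 0.38) rose from mean levels of 0.324 to 0.367 CPM.

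Elsewhere, outside both sets of segments, 101 peaks rose and 150 fell, of which 45 rose and 18 fell at least 2-fold. The count of 251 was 398 without KO replicate 2, 136 without WT replicate 3, 158 without KO replicate 3 and 95 with DESeq2. These calls were spread over 179 bins of 2 Mb, 138 of which held a single one.

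The largest rise by the rule was in Gm3435 (chr17:15021508-15022340). The peak had 0, 1, 0 and 0 counts in WT libraries and 37, 55, 30 and 48 in KO libraries, a ratio of 172 with an exact 95% counting interval of 30.5 to 6840. Its WT level was 0.0289 ± 0.058 CPM and its KO level 4.36 ± 0.37. The peak was open in every KO library and held 1 count in all WT libraries together. It was called under Dex and under IL4 as well.

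At several of the next rises the KO libraries differed among themselves. Inside Cobl, an actin nucleator (chr11:12375041-12375288), they held 7.63, 3.15, 8.3 and 2.94 CPM, against 0.237, 0.346, 0.11 and 0.106 in WT (4.59 ± 0.63, adjusted p = 0.00615). The call at Cobl was lost without WT replicate 1, 3 or 4, with log2 fold changes that kept their sign. Inside Pkd1l1, nearest to the start of Hus1 (chr11:8948870-8949146), the KO libraries held 7.76, 4.47, 6.26 and 3.04 CPM and the WT libraries 0.633, 0.923, 0.44 and 0.746 (2.9 ± 0.29). Near the odorant receptor gene Olfr1258 (chr2:89910672-89911369) the KO libraries held 6.08, 3.59, 6.39 and 3.42 CPM and the WT libraries 0.87, 0.231, 0.44 and 0.426 (3.12 ± 0.3). Near Olfr140 the KO libraries held 5.04, 2.86, 5.31 and 2.56 CPM and the WT libraries 0.791, 0.462, 0.44 and 0.32 (2.8 ± 0.31). At these 4 peaks KO libraries 1 and 3 were the 2 highest, and all 4 KO libraries were above all WT libraries, as the rule required. KO libraries 1 and 3 also had the fewest counts in tested peaks, 7556378 and 7238504, against 13570361 and 10595785 in KO libraries 2 and 4. A part of depth in this pattern was not tested. Odorant receptor genes are a large family of similar copies, so counts there are uncertain. Smaller rises among the 10 were seen in Nudcd1 (2.88 ± 0.38) and near 1700025K24Rik (2.82 ± 0.39), Olfr1261 (2.31 ± 0.34) and Pi15 (2.3 ± 0.35). The last of the 10 was a peak with no assigned gene (chr15:91104377-91104699, 2.24 ± 0.31). Of the 10 rises, 7 were called under Dex and 8 under IL4. This last peak was not called under Dex (1.68, adjusted p = 0.427) or IL4 (1.69, adjusted p = 0.387). The Cobl peak was not called under Dex (4.44, adjusted p = 0.166). The Olfr1261 peak was not tested under Dex, nor the Nudcd1 peak under IL4.

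The 10 falls named elsewhere ran from -2.22 to -1.13. Near Mylip, a ubiquitin ligase that targets the LDL receptor (chr13:45311456-45311849), WT libraries held 5.38, 4.85, 5.06 and 7.14 CPM and KO libraries 1.29, 1.47, 0.544 and 1.23 (-2.22 ± 0.22, adjusted p = 3.13e-11). This peak lies in the bin from 44 to 46 Mb of chromosome 13, beside a dense segment, which held 9 calls. Rfc3, a subunit of the clamp loader of DNA replication, fell at a peak in the gene (-1.97 ± 0.34), as did 4930444P10Rik (-1.92 ± 0.34). The 4930444P10Rik peak (chr1:16079146-16079505) lies in the bin just past the dense segment around Ncoa2. Bins beside a dense or wider segment also hold the peaks in Nudcd1, near Pi15, near Fam214a and at the Gmpr promoter. Falls of -1.74 ± 0.28 near Stac, -1.43 ± 0.16 near Gsdmc and -1.13 ± 0.2 near Fam214a were also called in both treatments. A peak without an assigned gene (chr13:21811584-21812759) fell by 1.22 ± 0.13 on the log2 scale. A peak in Ikzf1, which encodes the lymphoid and myeloid regulator Ikaros, went from 5.1 ± 1.3 to 2.05 ± 1.2 CPM (-1.24 ± 0.27, adjusted p = 0.0256), and one in Auts2 from 2.02 ± 0.24 to 0.871 ± 0.28 (-1.19 ± 0.3, adjusted p = 0.0314). Neither was called under Dex or IL4, and both calls were lost with DESeq2. The Ikzf1 call was also lost without WT replicate 4 or KO replicate 1 or 2. Leaving out WT replicate 2, 3 or 4 or KO replicate 2 or 3 also removed the Auts2 call.

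**Figure D3:**
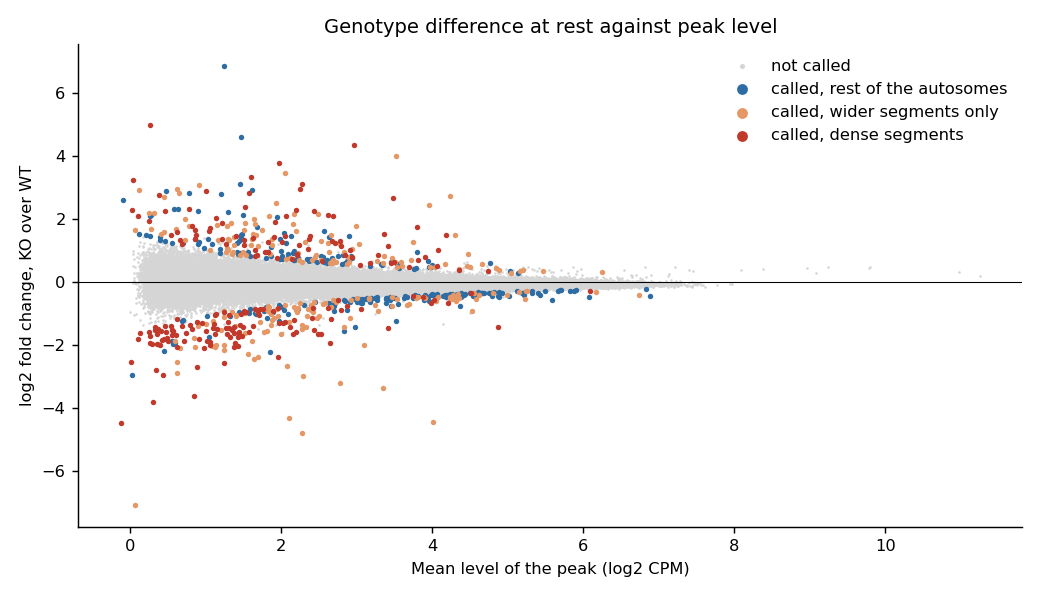
Log2 fold change of KO over WT (y axis) against the mean level of each tested peak in log2 CPM (x axis); grey points were not called, and colours give the region of called peaks. Called changes of 2-fold or more lie mostly among peaks of low level, and the largest rise is the Gm3435 peak at 6.85.

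Promoter peaks, within 1 kb of a start, were called in 42 of 12445 cases (0.337%), and more distant peaks in 632 of 94349 (0.67%). This difference was not tested. The share of counts in promoter peaks was 32.5% ± 0.19 in WT and 32.1% ± 0.69 in KO (SD, n = 4; exact two-sided permutation p = 0.486, where the smallest possible is 0.0286). Dense segments took 0.64% ± 0.0066 of counts in WT and 0.652% ± 0.0077 in KO (exact permutation p = 0.0857). Neither share differed beyond the spread between libraries by this test.

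Elsewhere, 7 promoter peaks rose and 13 fell of 12006 (0.167%), and 7 of these 20 were called under every alternative run that tested them. Dmwd, a gene beside the myotonic dystrophy kinase, had WT levels of 17.3, 18.9, 17.4 and 16.4 CPM and KO levels of 11.5, 13, 9.66 and 12.3 (-0.57 ± 0.11, adjusted p = 0.000441). The Pak1 promoter, with the 2 cyclic AMP response elements shown above, held 9.02, 9.23, 8.57 and 10.5 CPM in WT and 14.7, 12, 16.2 and 13.3 in KO (0.57 ± 0.12, adjusted p = 0.0028). Both groups of libraries were apart at each gene, as the naming rule required, and both changes were called under Dex and IL4. Gmpr, a GMP reductase, rose from 1.41 ± 0.44 to 4.69 ± 0.49 CPM (1.74 ± 0.22), and Lsp1, an actin-binding protein of leukocytes, from 3.02 ± 0.61 to 5.66 ± 0.92 (0.91 ± 0.18). The Lsp1 change was not called under Dex (0.5, adjusted p = 0.0938) or IL4 (0.28, adjusted p = 0.701).

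In the wider set, the promoter of Cmtm8, a membrane protein gene, rose from 14.6, 15.7, 15.1 and 16.7 CPM to 27.5, 29.7, 30.7 and 27.4 (0.9 ± 0.09, adjusted p = 1.29e-11). Plcd1, a phospholipase C, fell from 44.1 ± 1.4 to 30.4 ± 2.9 CPM (-0.54 ± 0.07) and Aph1b, a gamma-secretase subunit, from 122 ± 7 to 91.8 ± 5.7 (-0.4 ± 0.06). The chemokine receptor Cxcr4 rose from 31.7 ± 2.1 to 40.1 ± 2.9 CPM (0.34 ± 0.07, adjusted p = 0.00761), a call that was lost without WT replicate 1. Beside Tpm1, a tropomyosin gene, a weak peak went from 2.06 ± 0.87 to 0.544 ± 0.11 CPM (-1.86 ± 0.34), and was not called under Dex (-0.62, adjusted p = 0.526) or IL4 (-0.88, adjusted p = 0.183).

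Both promoter peaks of Mpp7, a scaffold protein of cell junctions, fell on chromosome 18. Both calls held under every alternative run, but neither peak was searched for the promoter sequences printed first. One went from 10.3 ± 1.5 to 3.64 ± 1.3 CPM (-1.55 ± 0.16, adjusted p = 3.11e-10) and the other from 57.2 ± 2.7 to 39 ± 3.9 (-0.56 ± 0.07, adjusted p = 3.39e-08). The other promoter calls elsewhere were lost under at least 1 alternative, except Olfr1261 (2.11 ± 0.39). Among them, Hjurp, a chaperone of centromeric histone, went from 136 ± 4.2 to 99.5 ± 16 CPM (-0.46 ± 0.08), Mirlet7i from 56.1 ± 2.2 to 46.4 ± 2.7 (-0.27 ± 0.07) and Zc3hav1, an antiviral zinc finger gene, from 64.9 ± 3.8 to 54.5 ± 3.8 (-0.25 ± 0.07). The lost calls ranged from -0.67 for Mroh2a to 0.77 for Kif21a.

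**Figure D4:**
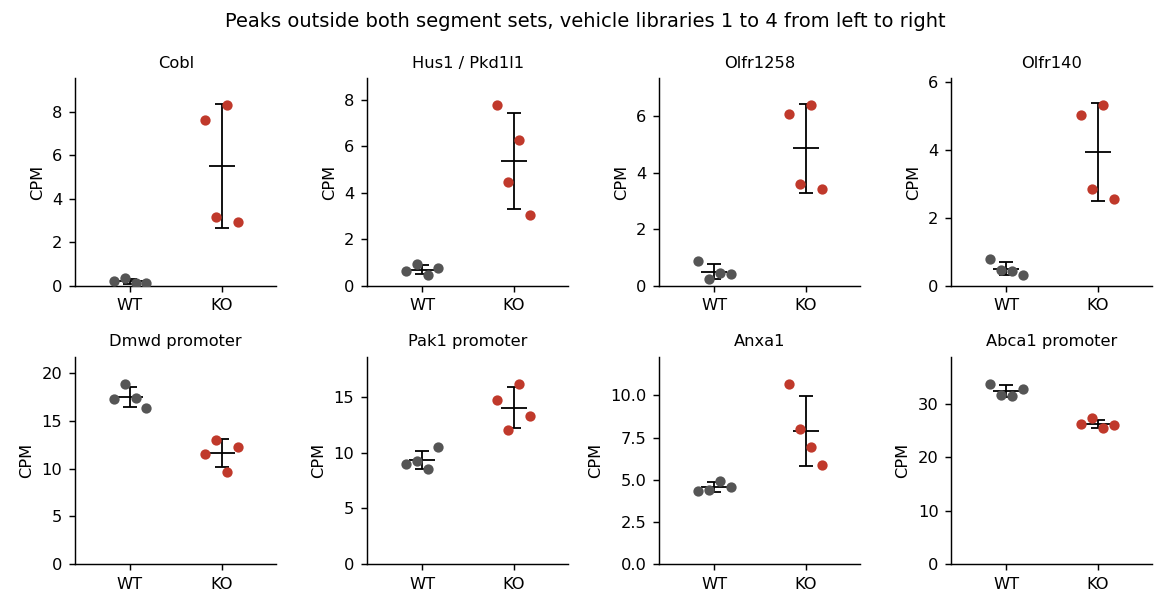
Level of 8 peaks outside both segment sets in CPM (y axis) in the WT and KO vehicle libraries; points are libraries 1 to 4 from left to right, the bar is the mean and the whiskers the SD (n = 4). The genotypes do not overlap at any of the 8, which was a condition for naming them, and the KO libraries at Cobl range from 2.94 to 8.3 CPM.

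Genes of 20 lists that bear on macrophages and on GRIP1 held 3109 tested peaks, of which 12 were called (0.386%), 4 upward and 8 downward. Over all tested peaks 0.631% were called, a share that includes the segments. Outside the dense segments the lists held 3086 peaks, of which 3 rose and 7 fell, where 0.45% of all peaks were called. Outside both segment sets 8 listed peaks were called, where 0.245% of all peaks were called. These shares were not tested against each other. The lists' median log2 fold changes ran from -0.14 for interferon-stimulated genes to 0.17 for neutrophil markers, against 0 over all peaks. No peak was called among 281 near NF-kB and inflammatory genes, 113 near interferon-stimulated genes, 95 near antigen presentation genes or 186 near the KLF family, by edgeR. At an unadjusted p below 0.05, those lists had 34, 16, 9 and 15 peaks, where 9.18% of all tested peaks passed. Counts near interferon-stimulated genes made up 0.115% of WT library 1 and 0.0848% to 0.0888% of the other WT libraries. The KO libraries lay between 0.0854% and 0.0909%.

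Among glucocorticoid receptor targets, 1 of 270 peaks was called. It lies 18.3 kb from Anxa1, a mediator of glucocorticoid anti-inflammatory action (chr19:20371402-20373317), and held 4.35, 4.39, 4.95 and 4.58 CPM in WT and 10.7, 7.99, 6.94 and 5.88 in KO (0.78 ± 0.16, adjusted p = 0.00225). All KO libraries were higher, as the naming rule required, with library 1 highest, and the call was lost without KO replicate 1. Among IL4 and STAT6 targets, 1 of 345 was called, 65.1 kb from Irf4, a transcription factor of alternative activation, inside Exoc2: 3.83 ± 0.4 to 6.41 ± 1.4 CPM (0.72 ± 0.17, adjusted p = 0.0152). It was not called under Dex (0.17, adjusted p = 0.79) or IL4 (0.36, adjusted p = 0.289). Irf4 also stands on the list of dendritic cell markers. That list held 1 call among 90 peaks. Its share of counts was 0.0567% to 0.0572% in WT and 0.0586% to 0.0623% in KO (exact permutation p = 0.0286, the smallest possible, and 0.493 after adjustment over 23 shares). The part of dendritic cells in the Irf4 call was not tested.

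In the list of p160 coactivators and nuclear receptor coregulators, a peak 69.8 kb from Nr3c1, the glucocorticoid receptor gene, went from 1.34, 1.04, 1.1 and 1.92 CPM to 3.49, 2.49, 3.54 and 2.18 (1.05 ± 0.25, adjusted p = 0.0197). The genotypes did not overlap, as the naming rule required, and the peak was not called under Dex (0.15, adjusted p = 0.894) or IL4 (0.74, adjusted p = 0.19). The call was lost with DESeq2, and also without WT replicate 1, 2 or 3 or KO replicate 1 or 3.

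The Abca1 promoter, of the cholesterol exporter, held 33.8, 31.7, 31.5 and 32.8 CPM in WT and 26.2, 27.3, 25.4 and 26.1 in KO (-0.31 ± 0.08, adjusted p = 0.0301). The genotypes were apart, as the naming rule required, and the call was lost without any single library of the 8. Peaks near the matrix protease gene Mmp9 (-0.43 ± 0.1) and the growth factor gene Pdgfa (-0.29 ± 0.07) fell, as did one near the heme-responsive repressor Bach1 (-0.37 ± 0.09, adjusted p = 0.0376, libraries overlapping). Calls in segments were a rise (1.47 ± 0.17) and a fall (-2.03 ± 0.25) at Mcm3, a replicative helicase subunit, in a dense segment. In the wider set, the chemokine receptor genes Ccr2 (-0.93 ± 0.15) and Cx3cr1 (-0.5 ± 0.1) had a called fall each. The Ccr2 peak was also called under Dex (-1.19, adjusted p = 1.99e-07) and IL4 (-0.95, adjusted p = 4.63e-06). The Cx3cr1 peak was called in neither, at 0.1 under Dex (adjusted p = 0.853) and -0.36 under IL4 (adjusted p = 0.0717). Of the 12 calls, 3 held under every alternative run of the resting comparison that tested them: the pair at Mcm3 and Cx3cr1.

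The same peaks were then read in the treated libraries, none of which entered the resting comparison. Under Dex, 938 of 114908 peaks (0.816%) were called between genotypes, and under IL4 1174 of 117781 (0.997%). Of the calls made at rest, 650 of 658 measured under Dex had the same sign and 424 were called. Under IL4 the same sign was found for 649 of 661 and 397 were called. In all, 334 were called in all 3 conditions. Peaks not called at rest had the same sign in 62.1% of cases under Dex and 58.8% under IL4. The treated libraries had set the dense and wider segments, and thereby also which peaks remain elsewhere, so counts by region are descriptions. The labels do not say whether treated and resting libraries share mice. Elsewhere, 241 of 247 had the same sign under Dex and 95 were called, and 236 of 247 and 87 under IL4. Of the 251 peaks elsewhere, 68 were called in all 3 conditions and 137 in neither treatment.

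**Figure D5:**
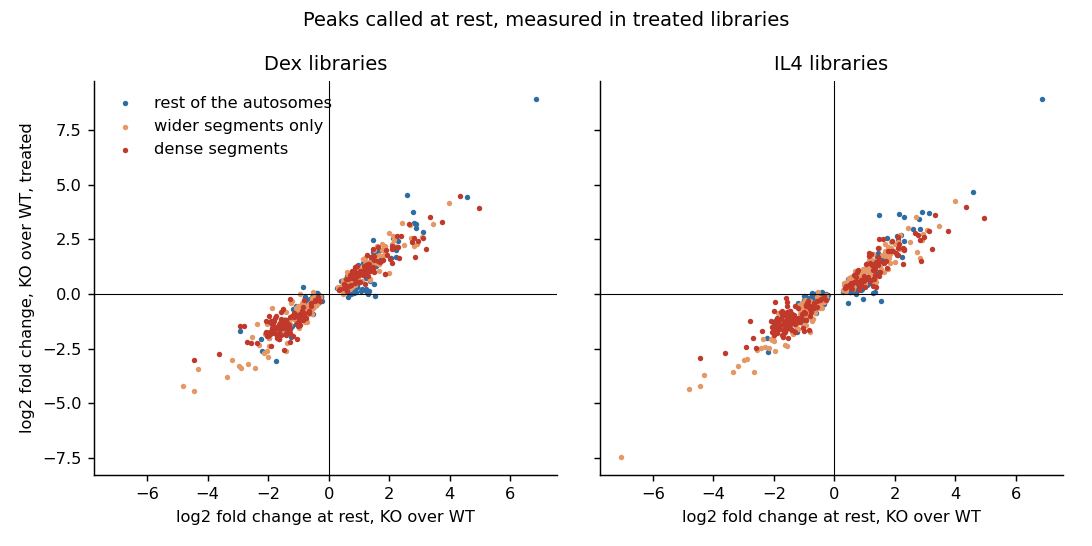
Log2 fold change of KO over WT under Dex (left) and IL4 (right) on the y axes against that at rest on the x axes, for peaks called at rest, coloured by region. Of the points, 650 of 658 (Dex) and 649 of 661 (IL4) have the same sign on both axes.

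A test of the difference in the genotype effect between rest and treatment called no peak for Dex (0% of 127325 peaks; 4421 at an unadjusted p below 0.05 by edgeR) and 3 for IL4 (0.00236%; 5212 unadjusted). The genotype effect was therefore not shown to differ between rest and Dex at any single peak.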

How the data were processed

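ATAC-seq was analysed in 8 vehicle libraries (4 KO, 4 WT), with 16 treated libraries for segments and comparison. The authors deposited whole-number read counts per peak (mm10); tools in the submitters' processing notes, given without roles, were featureCounts, edgeR, MACS2, SAMtools, Bowtie2 and fastp. The authors' deposited table of log2 fold changes, p-values and F scores served for nearest genes and as a check of scale (slope 1.00; 431 of its 487 autosomal calls were called here). Unlisted peaks took the nearest start within 50 kb. A nearest start is a position only, not a regulatory link.

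Counts were tested in R 4.3.3 with edgeR 4.0.16 (filterByExpr, TMM, robust quasi-likelihood F test, Benjamini-Hochberg over 106794 autosomal peaks, called below 0.05). SE is the log2 fold change over the square root of F. CPM are TMM-scaled. The fit was tested on simulated data, with changes placed only at peaks above a minimum mean count. It recovered 53.7% of 1.5-fold, 86.6% of 2-fold and 100% of 3-fold changes, and called 13 unchanged peaks. A list without a call can therefore hold changes of about 1.5-fold, and some of 2-fold, that were missed. Weaker tested peaks, below that minimum, were not covered by the simulation, so larger changes could be missed there.

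Named peaks were called, had groups that did not overlap and a higher mean of at least 2 CPM: outside dense segments the 10 largest rises and falls (1 per gene), inside 5 each, promoters outside 5 each by smallest p, and per list the rise and fall of smallest p. All tested Ncoa2 peaks were included. The largest changes, promoter calls elsewhere and remaining list calls were added after their values were seen, as was the split by the wider set. A called peak of a listed gene is not reported here. Members and lists were chosen with earlier results of these data known. Alternatives covered DESeq2 1.42.0, scaling, filters, samples and segment rules. Replicate numbers did not pair libraries (correlation of same-numbered deviations -0.086 to 0.022).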

Additional observations from a re-analysis of the deposited data

Results flagged for a closer look

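Single libraries stood far from the others of their group 10 times in 232 groups of 4 at the named peaks; chance alone gives about 1 in 20 groups. Among called peaks, the high libraries were WT replicate 2 at Gm3435 (0.115 CPM, others 0), KO replicate 4 in Pstpip1 (1.61, others 1.16 to 1.22), KO replicate 1 near Fam214a (3.1, others 1.71 to 1.91), KO replicate 1 at Gmpr (5.43, others 4.4 to 4.49), WT replicate 3 near Pdgfa (61.2, others 53.2 to 54.2) and KO replicate 3 at a promoter of Mpp7 (44.9, others 36.5 to 37.4). Among peaks not called, KO replicate 2 was low at chr9:63927777-63928824 (3.08 CPM, others 3.89 to 4.01). Inside Ncoa2, WT replicate 2 was high at chr1:13176604-13176910 (3.23, others 2.13 to 2.2). At chr1:13328443-13328783, WT replicate 1 was high (1.9, others 1.21 to 1.28) and KO replicate 1 low (1.16, others 1.99 to 2.13).

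The genotype effect under IL4 differed from that at rest at 3 peaks (edgeR interaction). At chr9:63927777-63928824, in the wider set, it was 1.75 higher on the log2 scale (adjusted p = 8.48e-05): KO and WT held 3.73 ± 0.44 and 3.25 ± 0.48 CPM at rest, and 10.6 ± 1.7 and 2.92 ± 0.63 under IL4. Inside Ldlrad4 the difference was -0.84 (adjusted p = 0.0117), with 15.8 ± 2.2 in KO and 11.6 ± 1.1 CPM in WT at rest and 14 ± 2.2 and 18.5 ± 2.2 under IL4. Near 1700020M21Rik it was -0.8 (adjusted p = 0.0235), with 32.9 ± 2.2 and 4.84 ± 0.82 CPM at rest and 36.5 ± 3.1 and 9.67 ± 0.84 under IL4.

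The sex chromosomes, outside the autosomal comparison, also held calls when all chromosomes were fitted. On X, 85 of 2206 peaks were called, 84 of them rises that all lay from 166.8 Mb on, where 149 peaks were tested. That region was set from the data, at the first called rise. Its summed counts, scaled as CPM to autosomal counts, were 775 ± 13 in WT and 1430 ± 29 in KO, a description with no test since the calls set the region. On Y, 11 of 41 peaks were called, all rises, with 238 ± 14 in WT and 462 ± 70 in KO. The cause was not tested.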

How the results depend on the processing

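No call at rest changed sign under any alternative fit, and 57 of 84 named called peaks stayed past the threshold in every alternative that tested them. DESeq2 called 390 peaks (190 rose, 200 fell; 246 outside dense segments, 95 in neither segment set), and 387 of the 390 are among the 674. An adjusted p below 0.01 left 433 (232 fell; 269 outside, 107 in neither set). Requiring 2-fold left 324 (163 rose, 161 fell; 173 outside, 63 in neither set), of which 268 were called under Dex and 258 under IL4. Calls inside segments were 124 with 5 Mb bins, 314 with a 5% share, 85 with a 20% share, 423 without the fold condition (251 outside) and 130 with segments set from the vehicle libraries themselves. Leaving out libraries gave 229 to 487 rises, 310 to 677 calls outside dense segments and 136 to 398 in neither set. Scaling by library totals or by loess moved the share of rises from 43.2% to 49.4% and 45.2%. The cause of these shifts was not tested.

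With the replicate number as a block, 616 peaks were called (291 rose, 325 fell), 577 of them among the 674. Same-numbered libraries did not deviate together, so the numbers were not taken as pairs.

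Of 9 Ncoa2 peaks not called, values near 0 changed sign when libraries were left out. Their ranges over single left-out libraries were -0.23 to 0.06 (chr1:13151169-13151486), -0.18 to -0.02 (chr1:13162222-13162923), -0.09 to 0.42 (chr1:13297092-13297445), -0.05 to 0.26 (chr1:13301473-13301968), -0.06 to 0.23 (chr1:13311600-13312261), -0.14 to 0.15 (chr1:13343855-13344073), -0.06 to 0.16 (chr1:13366184-13366859), -0.11 to 0.22 (chr1:13383450-13383925) and -0.12 to 0 (chr1:13426253-13427189). Without replicate 1 of both genotypes, those that changed sign were at 0 (chr1:13162222-13162923), -0.2 (chr1:13297092-13297445), -0.06 (chr1:13311600-13312261), -0.13 (chr1:13366184-13366859). With library totals the peak at chr1:13343855-13344073 was at 0.01. The median count of 36 per tested peak limits what small changes can be called.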

Other observations

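Apart from the dense and wider segments, 17 bins of 2 Mb held 3 or more calls and together 65 of the 251 calls elsewhere. In the bin from 44 to 46 Mb of chromosome 13, 9 peaks were called, 5 of them nearest to Dtnbp1, which encodes dysbindin. One of these went from 77.8 ± 7.8 to 56.5 ± 3.4 CPM (log2 fold change -0.46 ± 0.07, edgeR adjusted p = 1.98e-06), while another went from 2.9 ± 0.26 to 5.69 ± 0.35 (0.97 ± 0.17). In the bin from 80 to 82 Mb of chromosome 7, a peak 36.9 kb from Furin, a proprotein convertase gene, rose from 0.811 ± 0.14 to 3.84 ± 0.52 CPM (2.21 ± 0.26, adjusted p = 4.21e-09). In that bin, peaks near Sema4b (-0.87 ± 0.17), Crtc3 (-0.93 ± 0.15), Wdr73 (-0.64 ± 0.16) and Homer2 (-0.64 ± 0.15) fell. These peaks were chosen after their values were seen.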
